A study of Mus musculus with 22 samples.

Results

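The basement membrane genes described here were 10 chosen by symbol: the collagen chains Col4a1 and Col4a2, the laminin alpha chains Lama1 and Lama5, the laminin beta chain Lamb1, the laminin gamma chain Lamc1, Nid1 (nidogen), Hspg2 (perlecan), Sparc, a secreted glycoprotein that binds collagen, and Serpinh1, the collagen chaperone of the endoplasmic reticulum. All 10 were found among the 55367 symbols of the table, and all 10 passed the filter on low counts that left 17547 genes to test. They were followed through 22 RNA-seq libraries of mouse cells in 10 groups. Wild-type primitive endoderm (PrE) stem cells grown in PrE stem cell culture came from E14 cells as lines EPZ.iPrE1 and EPZ.iPrE2 (called EPZ_iPrE1 and EPZ_iPrE2, n = 2 libraries each), which the study describes as derived from wild-type embryonic stem cells (ESCs) with EPZ-6438, an inhibitor of the methyltransferase EZH2, and from C57 cells (C57_PrESC, n = 2). Whether the inhibitor was still present at harvest is not stated. Cells null for Ezh2, the catalytic subunit of the Polycomb complex PRC2 that methylates histone H3 at lysine 27, were a single E14 clone, number 10. It was analysed after rescue with Ezh2 (KO10_SL_rescued, n = 2), in LIF medium with 2i, the inhibitor pair that holds ESCs in a naive state (KO10_S2iL, n = 2), and in LIF medium (KO10_SL, n = 3). The labels spell the gene Eeh2, and the study's text describes the LIF media as containing serum. E14 is an established mouse ESC line. Wild-type ESCs were E14 cells titled TG2A.NG.PB in LIF medium with 2i (TG2A_S2iL, n = 2), E14 cells titled only ESC in LIF medium (E14_ESC, n = 3), the TG2A.NG.PB cells in LIF medium (TG2A_ESC, n = 2) and C57 ESCs in LIF medium (C57_ESC, n = 2). The second knockout clone named in the design was not analysed here, so knockout results rest on 1 clone. The labels do not say whether libraries came from separate cultures, so p-values measure only the spread between these libraries.

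The basement membrane is a thin sheet of extracellular matrix that lies under epithelia. Laminin trimers, each built from an alpha, a beta and a gamma chain, form a network on the cell surface, and type IV collagen forms a network of its own beside it. Nidogen and the proteoglycan perlecan bind to both networks. In the mouse blastocyst the PrE faces the cavity and deposits such a sheet. Its parietal descendants build the thick Reichert's membrane, and several of these genes are classic markers of that lineage.

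Library totals ran between 13.6 and 26.3 M estimated counts. The knockout libraries held 2, 1 and 1 Ezh2 counts in LIF medium and 6 and 0 with 2i, and the rescued libraries held 495 and 533 CPM (counts scaled to library size), against 173 to 184 CPM in E14_ESC. Summed CPM of 7 PrE markers (Gata6, Gata4, Sox17, Sox7, Pdgfra, Foxa2, Dab2) was 1643 to 2119 in the 3 PrE groups, with all 7 above 1 CPM in each library, and 6.61 to 94.2 in wild-type ESCs. Some libraries stood apart. Summed CPM of 10 fibroblast markers, 5 of which also stand in the interstitial matrix list used below, was 28.2 and 1949.9 in C57_PrESC replicates 1 and 2, 22.9 and 385 in C57_ESC replicates 1 and 2, 49.5 and 257 in EPZ_iPrE2 replicates 1 and 2, and 154 and 24.9 in EPZ_iPrE1 replicates 1 and 2. It was at most 35.7 in all other libraries. Summed CPM of 8 macrophage markers was 16.0 to 43.8 in EPZ_iPrE2, 12.3 to 22.04 in EPZ_iPrE1 and 29.4 to 158 in C57_PrESC, against 0 to 0.208 in TG2A_ESC and 0.212 to 6.71 in C57_ESC. Few of these markers made up the sums. Above 1 CPM were 1 and 3 of the 8 in EPZ_iPrE2 replicates 1 and 2, 2 in each EPZ_iPrE1 library, and 3 and 6 in C57_PrESC replicates 1 and 2. The part of macrophage marker RNA in the PrE comparisons was not tested. C57_ESC replicate 1 held 94.2 CPM of PrE markers, against 20.6 in replicate 2. The summed level of 5 endothelial markers was 0.658 to 1.92 CPM in PrE groups and 79.4 to 194 CPM in the other groups. Outside the PrE groups 2 to 4 of these 5 markers were above 1 CPM in each library, so the sum rests on part of the list.

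The starts of these genes are shown first because the collagen genes lie head to head. On mouse genome build mm10 (GRCm38), with GENCODE M21 annotation, Col4a1 lies on chromosome 8 from 11198423 to 11312826 on the minus strand and Col4a2 from 11312805 to 11449287 on the plus strand. They are transcribed away from each other, and their first exons overlap by 22 bases. The 30 bases around that overlap, at chr8:11312801-11312830 and read from RefSeq (GRCm38.p6), are printed on both strands, with the 22 bases that lie in both first exons in capitals.
Col4a2 strand: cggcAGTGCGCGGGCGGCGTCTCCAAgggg
Col4a1 strand: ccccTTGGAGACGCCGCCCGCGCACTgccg
The other 8 genes lie apart: Lama1 on chromosome 17 (67697259 to 67822647, plus strand), Lama5 on chromosome 2 (180176373 to 180225859, minus strand), Lamb1 on chromosome 12 (31265234 to 31329644, plus strand) and Lamc1 on chromosome 1 (153218922 to 153332786, minus strand). Nid1 lies on chromosome 13 (13437551 to 13512269, plus strand), Hspg2 on chromosome 4 (137468769 to 137570630, plus strand), Sparc on chromosome 11 (55394500 to 55423183, minus strand) and Serpinh1 on chromosome 7 (99345376 to 99353239, minus strand). Annotated genes that overlap members held at most 6 counts in any library.

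RefSeq promoter windows (GRCm38.p6, 250 bases before to 50 after each start) were at hand for 8 of the 10 genes, all but Lama1 and Lamc1. The upstream bases outside annotated exons are printed for Lamb1 and Serpinh1, which rose in the Ezh2 knockout, and for Lama5 and Nid1, which did not rise there. Lamb1 is at chr12:31265043-31265233, plus strand, Serpinh1 at chr7:99353240-99353489, minus strand, Lama5 at chr2:180225860-180226109, minus strand, and Nid1 at chr13:13437352-13437550, plus strand. Capitals mark the motifs GGGCGG (the GC box bound by Sp factors) and CCAAT (the CCAAT box) on either strand.
Lamb1: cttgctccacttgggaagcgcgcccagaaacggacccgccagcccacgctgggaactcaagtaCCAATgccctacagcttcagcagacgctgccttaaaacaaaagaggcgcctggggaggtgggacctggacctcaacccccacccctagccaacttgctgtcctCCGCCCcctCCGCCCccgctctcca
Serpinh1: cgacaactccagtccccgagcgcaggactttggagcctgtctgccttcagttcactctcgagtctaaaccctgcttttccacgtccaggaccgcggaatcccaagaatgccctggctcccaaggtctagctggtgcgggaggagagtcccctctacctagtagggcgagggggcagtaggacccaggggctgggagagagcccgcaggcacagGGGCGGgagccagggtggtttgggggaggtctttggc
Lama5: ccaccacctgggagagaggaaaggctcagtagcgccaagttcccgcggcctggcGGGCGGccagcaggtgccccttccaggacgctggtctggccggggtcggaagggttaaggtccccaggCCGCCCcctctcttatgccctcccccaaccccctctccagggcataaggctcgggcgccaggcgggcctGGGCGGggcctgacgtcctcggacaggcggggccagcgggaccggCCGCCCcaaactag
Nid1: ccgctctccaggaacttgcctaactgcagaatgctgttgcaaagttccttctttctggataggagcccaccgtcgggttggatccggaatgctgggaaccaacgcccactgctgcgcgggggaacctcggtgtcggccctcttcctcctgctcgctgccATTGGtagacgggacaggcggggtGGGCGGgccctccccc
Over the whole windows, read on both strands, GGGCGG was present in 7 of the 8 member windows and in 35.91% of all 27025 windows, and CCAAT in 4 of 8 and 37.92%. GATAA, the core bound by GATA factors, was present in 0 of 8 member windows and in 25.81% of all windows, and ATTGT, a core bound by SOX factors, in 0 of 8 and 31.62%. No matches of different motifs shared bases in the 8 member windows, and the matches describe letters only.

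In the PrE stem cells most of the 10 genes stood far above their level in ESCs, with the collagen chains showing the largest rises. The 10 genes together took a mean of 2.58% of all counts in EPZ_iPrE2, 2.51% in EPZ_iPrE1 and 2.54% in C57_PrESC, against 0.206% in TG2A_ESC and 0.256% in C57_ESC. A positive log2 fold change means a higher level in the group named first, SE is its standard error, and a gene is called when its p from edgeR's quasi-likelihood test, adjusted by Benjamini-Hochberg over all 17547 genes, is below 0.05. All 10 were called higher in EPZ_iPrE1 against TG2A_ESC, where 27.9% of all genes were called higher, and all 10 in EPZ_iPrE2 against TG2A_ESC, where 28.8% were. Of the 10, 8 were called higher in C57_PrESC against C57_ESC, where 27.3% of all genes were, and Lama5 and Nid1 were not called. The median change of the 10 was 3.90, 4.12 and 3.62 in these comparisons, against -0.07, -0.11 and -0.09 over all genes tested. Of all genes, 36.3% in EPZ_iPrE1, 36.4% in EPZ_iPrE2 and 32.5% in C57_PrESC had every PrE library above every library of their ESCs. Both EPZ comparisons use the same TG2A_ESC libraries. In bulk RNA, more cells that express a gene and more RNA per cell cannot be told apart.

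**Figure D1:**
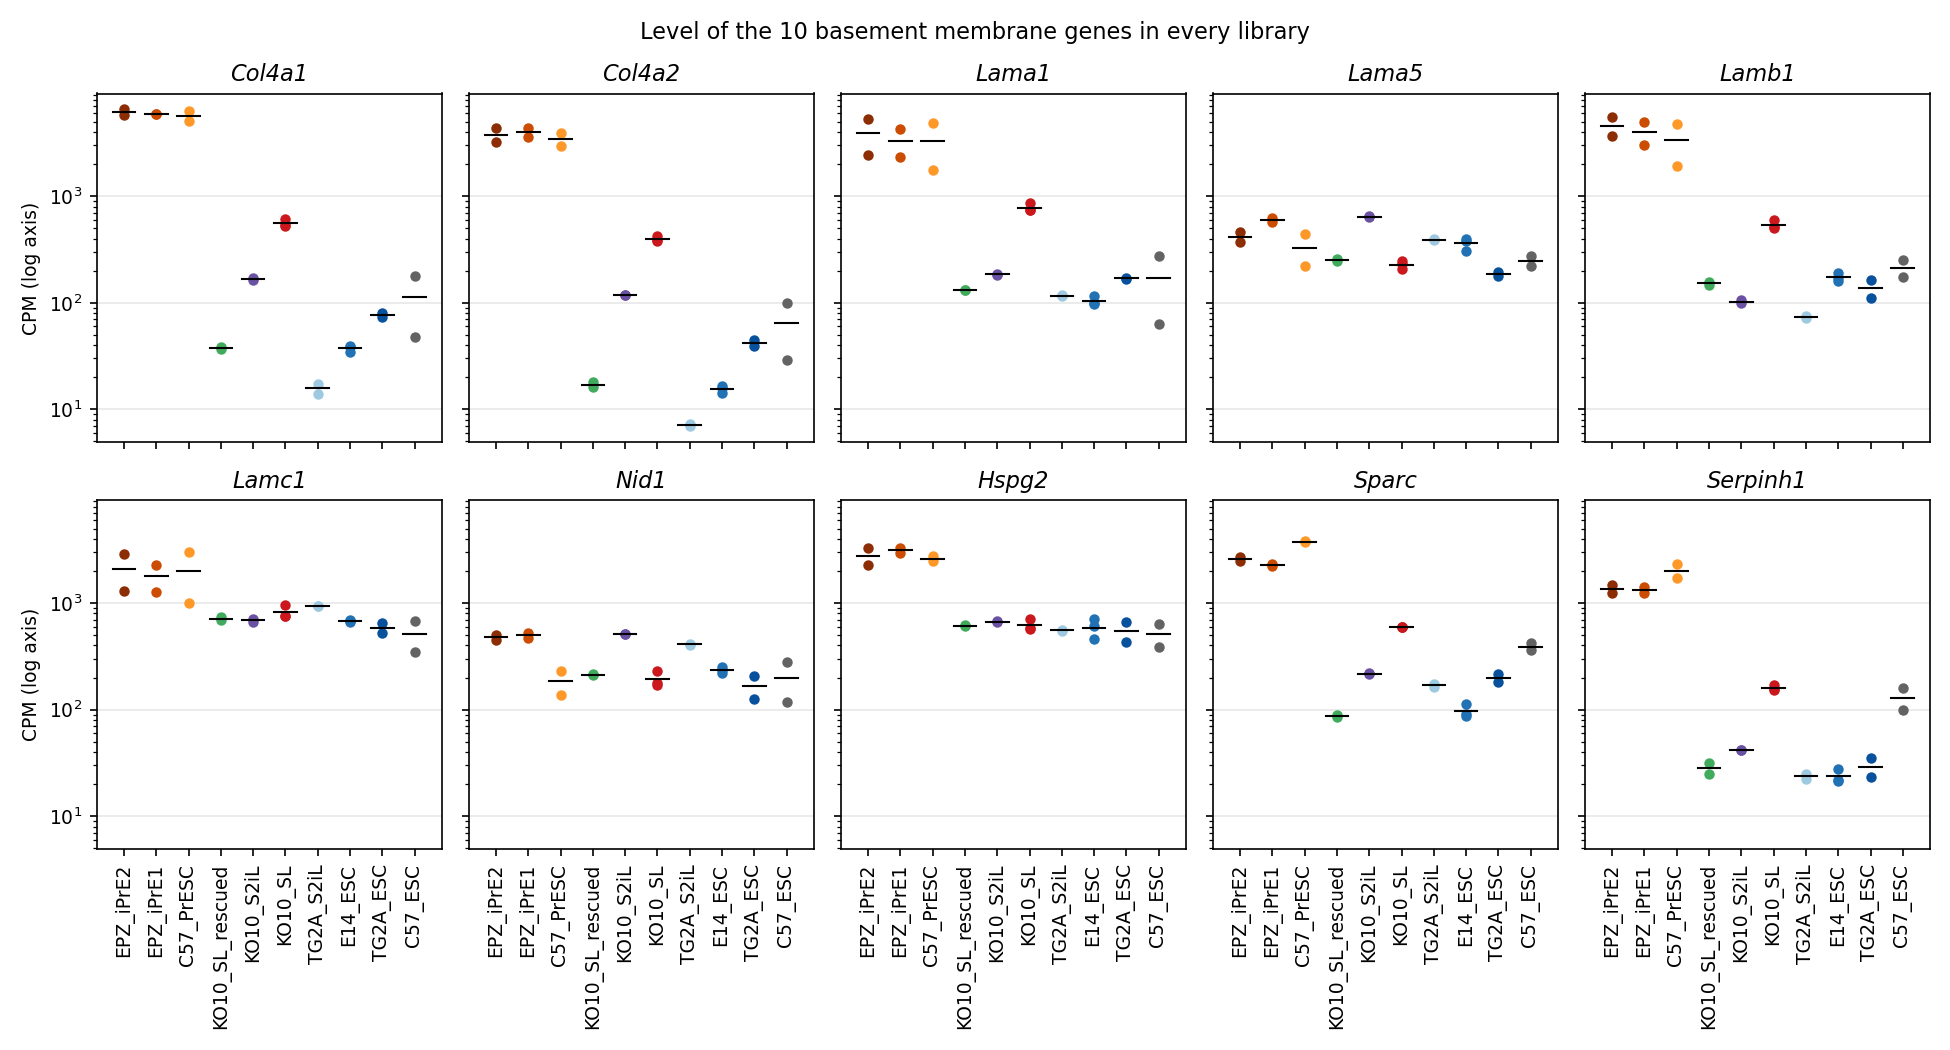
Level of each of the 10 genes in all 22 libraries, in CPM on a log axis, 1 panel per gene; each point is a library and each black line a group mean. Points of the 3 PrE groups lie above all other libraries for Col4a1, Col4a2, Lama1, Lamb1, Lamc1, Hspg2, Sparc and Serpinh1, with Col4a1 at 5058 to 6529 CPM there, whereas Lama5 and Nid1 overlap between groups. The share of all genes with PrE libraries above all others was not counted.

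Among the network-forming collagens, Col4a1 had 6529 and 5815 CPM in EPZ_iPrE2 and 5925 and 5856 CPM in EPZ_iPrE1, against 80.7 and 72.7 CPM in TG2A_ESC. In C57_PrESC it had 6284 and 5058 CPM, against 179.7 and 48.1 CPM in C57_ESC. The PrE libraries stood apart from all ESC libraries, and the C57_ESC pair was itself spread, with the higher level in the replicate of higher PrE markers. Col4a1 rose by 6.33 in EPZ_iPrE2 (SE 0.426, edgeR adjusted p = 2.22e-09), by 6.26 in EPZ_iPrE1 (SE 0.424, edgeR adjusted p = 2.62e-09) and by 5.64 in C57_PrESC (SE 0.412, edgeR adjusted p = 6.52e-09). Col4a2, its partner chain in the collagen trimer, had 4361 and 3209 CPM in EPZ_iPrE2, 3581 and 4374 CPM in EPZ_iPrE1 and 3878 and 2974 CPM in C57_PrESC. Its ESC levels were 39.4 and 44.4 CPM in TG2A_ESC and 99.6 and 28.9 CPM in C57_ESC, so the groups did not overlap. The Col4a2 rises were 6.50 in EPZ_iPrE2 (SE 0.418, edgeR adjusted p = 1.39e-09), 6.57 in EPZ_iPrE1 (SE 0.419, edgeR adjusted p = 1.32e-09) and 5.74 in C57_PrESC (SE 0.402, edgeR adjusted p = 4.08e-09). Over the means of the 10 groups, log2 levels of both chains had a Pearson r of 0.998, as a description of groups that share controls.

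Of the laminin chains, Lama1 (the alpha chain of embryonic laminin) had 5329 and 2452 CPM in EPZ_iPrE2, 2323 and 4226 CPM in EPZ_iPrE1 and 4842 and 1746 CPM in C57_PrESC, against 171 and 168 CPM in TG2A_ESC and 277 and 63.5 CPM in C57_ESC. Replicates differed widely, yet the PrE and ESC libraries did not overlap. The rises were 4.52 in EPZ_iPrE2 (SE 0.586, edgeR adjusted p = 4.34e-06), 4.27 in EPZ_iPrE1 (SE 0.579, edgeR adjusted p = 7.46e-06) and 4.27 in C57_PrESC (SE 0.579, edgeR adjusted p = 7.78e-06). Lamb1 had 5478 and 3654 CPM in EPZ_iPrE2, 3013 and 4991 CPM in EPZ_iPrE1 and 4745 and 1936 CPM in C57_PrESC. Against these stood 162 and 111 CPM in TG2A_ESC and 250.5 and 175 CPM in C57_ESC, again with no overlap. Lamb1 rose by 5.06 (SE 0.379), 4.87 (SE 0.376) and 3.97 (SE 0.36) in the same order of PrE groups, the largest edgeR adjusted p being 7.85e-08. Lamc1, the gamma chain among the members, had 2862 and 1290.1 CPM in EPZ_iPrE2, 1276 and 2301 CPM in EPZ_iPrE1 and 3026 and 993 CPM in C57_PrESC, against 520.1 and 656 CPM in TG2A_ESC and 676 and 349 CPM in C57_ESC. Its level was already substantial in ESCs, and the PrE and ESC libraries did not overlap. Its rises were 1.82 (SE 0.434, edgeR adjusted p = 0.0016) in EPZ_iPrE2, 1.60 (SE 0.431, edgeR adjusted p = 0.00407) in EPZ_iPrE1 and 1.97 (SE 0.436, edgeR adjusted p = 9.08e-04) in C57_PrESC. The EPZ_iPrE1 call ended without EPZ_iPrE1 replicate 2 (1.12, edgeR adjusted p = 0.0636), and the C57 call ended with only the groups compared in the fit (1.96, edgeR adjusted p = 0.0762).

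Lama5, the alpha chain of many adult basement membranes, rose by less and was not called in C57_PrESC. It had 459.6 and 371 CPM in EPZ_iPrE2 and 578 and 627 CPM in EPZ_iPrE1, against 179.7 and 195 CPM in TG2A_ESC, and rose by 1.15 (SE 0.217, edgeR adjusted p = 2.18e-04) and 1.69 (SE 0.22, edgeR adjusted p = 4.95e-06) there. In C57_PrESC it had 438 and 221 CPM, against 275 and 221 CPM in C57_ESC, and the change of 0.41 (SE 0.215, edgeR adjusted p = 0.11) was not called. Without C57_PrESC replicate 2, the library with high fibroblast markers, the change was 0.81 and was called (edgeR adjusted p = 3.27e-04). Nid1 had 451 and 506 CPM in EPZ_iPrE2 and 525 and 473 CPM in EPZ_iPrE1, against 127 and 205 CPM in TG2A_ESC, with rises of 1.53 (SE 0.307, edgeR adjusted p = 3.86e-04) and 1.59 (SE 0.308, edgeR adjusted p = 2.84e-04). In C57_PrESC it had 137 and 232 CPM, against 278 and 117 CPM in C57_ESC, a change of -0.10 (SE 0.301, edgeR adjusted p = 0.8). That value turned on single libraries: it was 0.68 and called without C57_ESC replicate 1, and -1.004 and called without both C57 libraries of high fibroblast markers, an alternative chosen after the data were seen.

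Hspg2 had 3253 and 2264 CPM in EPZ_iPrE2, 2970.3 and 3321 CPM in EPZ_iPrE1 and 2759.7 and 2467 CPM in C57_PrESC, against 430.2 and 659.5 CPM in TG2A_ESC and 636 and 389.6 CPM in C57_ESC. Every PrE library was above every ESC library, and the rises were 2.34 (SE 0.248), 2.53 (SE 0.25) and 2.35 (SE 0.248), with edgeR adjusted p of 4.32e-07, 1.99e-07 and 4.69e-07. Sparc had 2707 and 2473 CPM in EPZ_iPrE2, 2233 and 2339.6 CPM in EPZ_iPrE1 and 3823 and 3737 CPM in C57_PrESC, against 180.5 and 214 CPM in TG2A_ESC and 359 and 419.9 CPM in C57_ESC. Its replicates lay close together, and it rose by 3.71 (SE 0.13), 3.53 (SE 0.129) and 3.28 (SE 0.127), with edgeR adjusted p of 1.84e-12, 2.95e-12 and 4.39e-12. Serpinh1 had 1483 and 1257 CPM in EPZ_iPrE2, 1241 and 1409.8 CPM in EPZ_iPrE1 and 2306 and 1728 CPM in C57_PrESC, against 34.8 and 23.4 CPM in TG2A_ESC and 159.6 and 99.4 CPM in C57_ESC. PrE and ESC libraries were far apart in both lines. The rises were 5.56 (SE 0.257, edgeR adjusted p = 3.33e-11), 5.51 (SE 0.256, edgeR adjusted p = 3.87e-11) and 3.96 (SE 0.236, edgeR adjusted p = 6.3e-10).

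**Figure D2:**
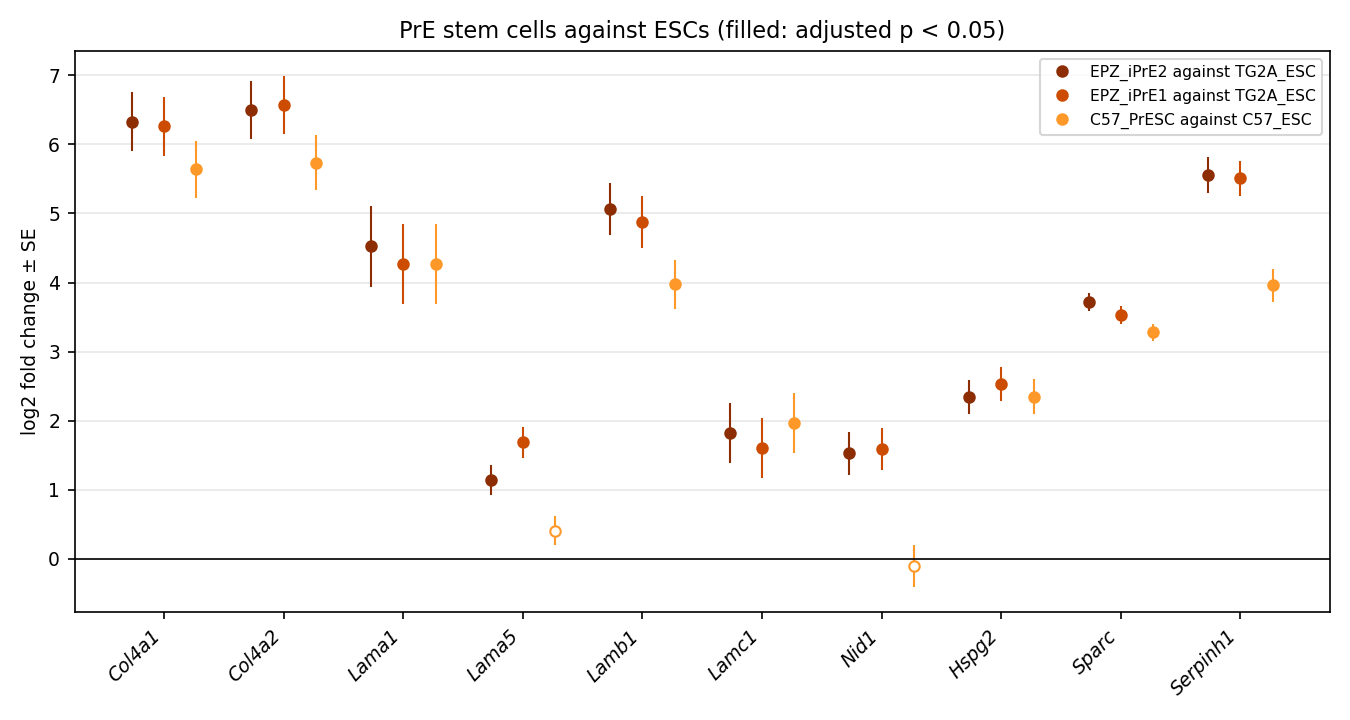
Log2 fold change with SE of each of the 10 genes in the 3 comparisons of PrE stem cells against ESCs; filled points have an edgeR adjusted p under 0.05. The collagen chains lie highest, at 5.64 to 6.57, and the 2 open points are Lama5 and Nid1 in C57_PrESC.

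Between the EPZ lines, EPZ_iPrE2 against EPZ_iPrE1, 0 of the 10 were called by edgeR or by DESeq2, and 1, Lama5, was under an unadjusted p of 0.05. Of all genes, 3.91% were called in either direction. Lama5 differed by -0.54 (95% interval -1.004 to -0.07, edgeR adjusted p = 0.218), and it was called when no filter on low counts was used. The 95% interval was widest for Lama1, at -0.85 to 1.35, and narrowest for Sparc, at -0.07 to 0.43.

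The mean change in the EPZ lines less the change in C57 cells was called for 3 of the 10, all higher, where 18.8% of all genes were called higher. The difference was 1.57 for Serpinh1 (SE 0.286, edgeR adjusted p = 4.69e-04), 1.66 for Nid1 (SE 0.406, edgeR adjusted p = 0.00435) and 1.01 for Lama5 (SE 0.287, edgeR adjusted p = 0.0114). With only the groups compared in the fit, the Nid1 and Lama5 calls ended (edgeR adjusted p = 0.0706 and 0.102). Col4a1 was not called (0.66, SE 0.452, edgeR adjusted p = 0.288), and its value was -0.59 and called without C57_ESC replicate 1 and 1.30 and called without C57_ESC replicate 2. The cell line, its controls and the way the PrE cells were obtained all differ between these sets and cannot be told apart.

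Within each PrE pair the laminin chains of the trimer were lower in the replicate with more fibroblast marker RNA. The log2 ratio of the replicate with more to the one with fewer was -1.12 for Lama1, -0.58 for Lamb1 and -1.15 for Lamc1 in EPZ_iPrE2. It was -0.86, -0.73 and -0.85 for these genes in EPZ_iPrE1, and -1.47, -1.29 and -1.61 in C57_PrESC. Sparc differed by -0.13, -0.07 and -0.03 in these pairs, and Nid1 by 0.17, 0.15 and 0.76 in the other direction. The pattern was not limited to PrE. In the C57_ESC pair the same ratio was -2.13 for Lama1, -0.52 for Lamb1 and -0.96 for Lamc1. There Col4a1 stood at -1.90, Col4a2 at -1.79, Nid1 at -1.25 and Sparc at 0.22. The laminin ratios of the PrE pairs lay beyond the central 90% of all genes with at least 10 CPM in each pair. Its bounds were -0.60 and 0.51 for EPZ_iPrE2 replicate 1 over replicate 2. For replicate 1 over replicate 2, the median log2 ratio of genes with transcripts over 6 kb was set against that of genes under 2 kb. The first less the second was 0.03 in EPZ_iPrE2, 0.04 in EPZ_iPrE1 and -0.03 in C57_PrESC. The part of other cells in these ratios was not tested.

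**Figure D3:**
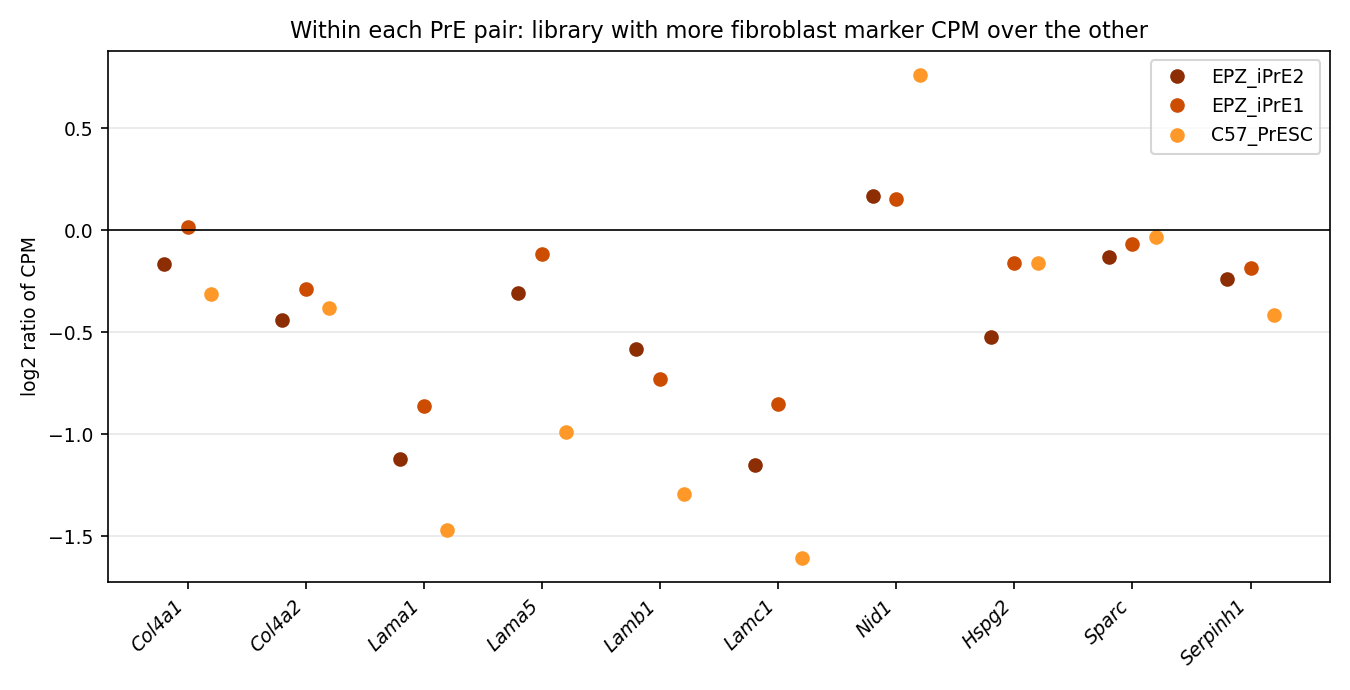
Log2 ratio of CPM between the replicate with more and the one with less fibroblast marker RNA, for each gene and PrE group; each point is 1 pair of libraries, so there is no error bar. Lama1, Lamb1 and Lamc1 lie between -1.61 and -0.58, and Nid1 lies above 0 in all 3 pairs.

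Levels of different genes were compared per kb of the longest coding transcript. On that scale Sparc was the highest of the 10 in each PrE group, at 1126 CPM per kb in EPZ_iPrE2, 994 in EPZ_iPrE1 and 1643 in C57_PrESC. Lama1 made up 82.8 to 93.3% of the summed per-kb level of Lama1 and Lama5 in the PrE libraries, against 50.7 and 53.2% in TG2A_ESC and 54.6 and 25.5% in C57_ESC. The ratio of the per-kb levels of Lamb1 and Lamc1 was 2.07 to 3.73 in the PrE libraries, and 0.222 to 0.661 in TG2A_ESC and C57_ESC. The PrE libraries held more Lamb1 than Lamc1 transcript per length, and the ESC libraries held less. Col4a1 stood 1.31 to 1.77 times above Col4a2 per kb in PrE libraries, against 1.60 to 2.00 times in TG2A_ESC and C57_ESC.

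**Figure D4:**
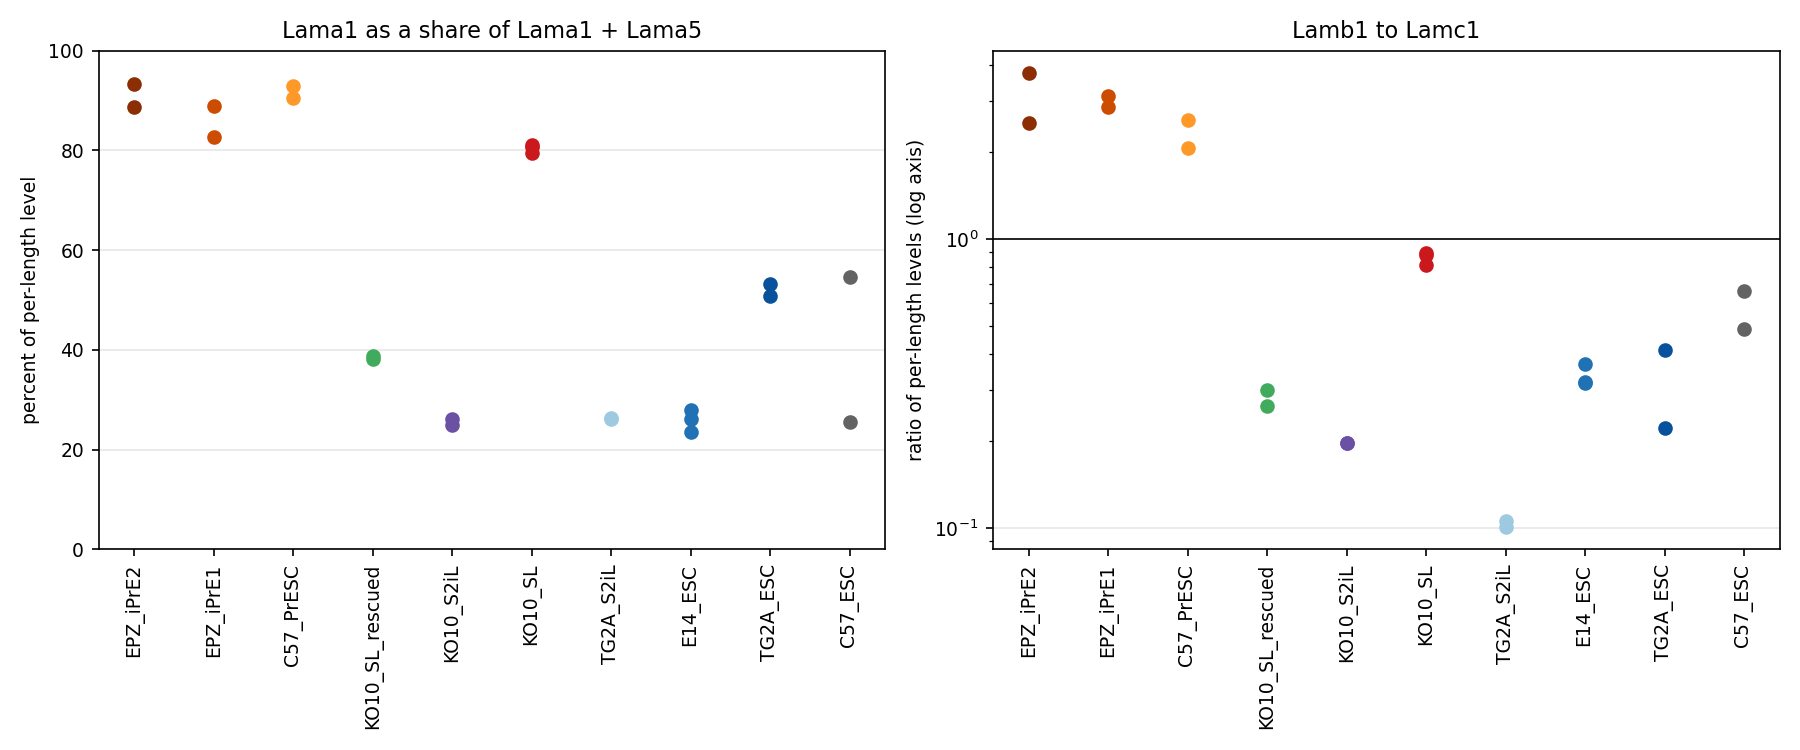
Left, Lama1 as a percent of the summed per-kb level of Lama1 and Lama5; right, the ratio of per-kb levels of Lamb1 and Lamc1 on a log axis; each point is a library. PrE libraries lie at 82.8% or more on the left and above 1 on the right, and the KO10_SL libraries at 79.4 to 81.0% and 0.812 to 0.895.

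In the Ezh2 knockout clone in LIF medium part of the set was higher. In KO10_SL against E14_ESC, 6 of the 10 were called higher, where 25.8% of all genes were, and 1, Lama5, was called lower, where 22.7% were. The 10 genes took a mean of 0.501% of counts in KO10_SL, against 0.238% in E14_ESC. Their median change was 2.12, against 0.07 over all genes.

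Col4a1 had 614, 537 and 529 CPM in KO10_SL, against 38.1, 39.3 and 34.4 CPM in E14_ESC, a rise of 3.91 (SE 0.313, edgeR adjusted p = 8.75e-08). Col4a2 had 419, 388 and 377 CPM in KO10_SL, against 16.4, 16.0 and 14.3 CPM in E14_ESC, a rise of 4.67 (SE 0.318, edgeR adjusted p = 2.32e-08). The lowest knockout library was 13.5 times the highest E14_ESC library for Col4a1 and 23.0 times for Col4a2. Lama1 had 857, 739 and 748 CPM in KO10_SL, against 99.8, 117 and 97.0 CPM in E14_ESC, a rise of 2.90 (SE 0.446, edgeR adjusted p = 5.5e-05). Lamb1 had 594, 507 and 509.6 CPM in KO10_SL, against 159.5, 169 and 191 CPM in E14_ESC, a rise of 1.63 (SE 0.268, edgeR adjusted p = 1.05e-04). Both laminin chains were clear of the E14_ESC range in all knockout libraries, as 36.1% of all genes were. Sparc had 592, 596 and 593 CPM in KO10_SL, against 90.6, 87.0 and 114 CPM in E14_ESC, a rise of 2.61 (SE 0.101, edgeR adjusted p = 6.35e-11). Serpinh1 had 171, 154 and 157 CPM in KO10_SL, against 21.9, 21.3 and 27.6 CPM in E14_ESC, a rise of 2.76 (SE 0.187, edgeR adjusted p = 2.2e-08).

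The remaining 4 were not called higher. Lama5 had 244, 229 and 209.5 CPM in KO10_SL, against 307, 396 and 379 CPM in E14_ESC, and fell by 0.66 (SE 0.176, edgeR adjusted p = 0.00503). Lamc1 had 965, 757 and 750.3 CPM in KO10_SL, against 665, 697 and 683 CPM in E14_ESC (0.27, SE 0.344, edgeR adjusted p = 0.536). Nid1 had 229, 169 and 179 CPM in KO10_SL, against 234, 249.6 and 221 CPM in E14_ESC (-0.29, SE 0.246, edgeR adjusted p = 0.351). Hspg2 had 702, 582 and 568 CPM in KO10_SL, against 607, 702 and 457 CPM in E14_ESC (0.07, SE 0.193, edgeR adjusted p = 0.786). Nid1 and Hspg2 overlapped between the groups, and the Lamc1 libraries did not overlap although the change was not called. Lamc1 was called higher without a filter on low counts (0.30, edgeR adjusted p = 0.0112) and with only the groups compared in the fit (0.26, edgeR adjusted p = 0.0299). Nid1 was called lower with only the groups compared (-0.31, edgeR adjusted p = 0.0226).

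For 8 of the 10 genes every KO10_SL library lay below every PrE library, and Lama5 and Nid1 overlapped with C57_PrESC. The share of all genes with that pattern was not counted, so the number describes these genes only. Of the genes that rose in the knockout, Col4a1 in KO10_SL was at 9.48% of the mean of the 3 PrE groups, Col4a2 at 10.6%, Serpinh1 at 10.2%, Lamb1 at 13.5%, Sparc at 20.6% and Lama1 at 22.4%. Hspg2 was at 21.8%, Lamc1 at 42.1%, Nid1 at 49.7% and Lama5 at 50.7%. Summed PrE markers were 232 to 292 CPM in KO10_SL with all 7 markers above 1 CPM, against 6.61 to 10.7 CPM in E14_ESC with 1 to 3 above 1 CPM. Nanog, a core pluripotency factor, stood at a mean of 415 CPM in KO10_SL, against 320.4 CPM in E14_ESC. Of 6 ESC markers (Nanog, Pou5f1, Sox2, Zfp42, Esrrb, Fgf4), 1 was called higher, 1 lower and 4 were not called. Of all genes, 25.8% were called higher and 22.7% lower. The median log2 change of these 6 markers was 0.025, within a range of -0.56 to 0.47. Summed fibroblast markers were 28.7 to 31.6 CPM in KO10_SL, against 12.04 to 14.7 CPM in E14_ESC. Of these 10 markers 0 were called, where 25.8% of all genes were called higher and 22.7% lower. Their median log2 change was 1.43 (-1.19 to 2.83), and 3 of the 10 were above 1 CPM in each KO10_SL library. The part of fibroblast RNA in the KO10_SL levels was not tested. The share of cells in the clone that carry the higher levels was not tested.

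Against the other wild-type set, KO10_SL against TG2A_ESC, the genes called higher were Col4a1 (2.87, SE 0.35), Col4a2 (3.23, SE 0.348), Lama1 (2.21, SE 0.505), Lamb1 (1.98, SE 0.315), Sparc (1.59, SE 0.113) and Serpinh1 (2.47, SE 0.216), where 13.6% of all genes were called higher. The largest edgeR adjusted p among them was 0.00385, for Lama1. Lama5 was not called there (0.28, SE 0.197, edgeR adjusted p = 0.307), but it was called higher without a filter on low counts (0.33, edgeR adjusted p = 0.0404) and with only the groups compared (0.30, edgeR adjusted p = 0.0367), the direction opposite to its fall against E14_ESC. Lamc1 was also called higher under these settings (0.53, edgeR adjusted p = 5.73e-05, and 0.51, edgeR adjusted p = 0.0236). The wild-type sets differed from each other: in E14_ESC against TG2A_ESC, Col4a2 (-1.44, edgeR adjusted p = 0.00346), Sparc (-1.02, edgeR adjusted p = 1.66e-05) and Col4a1 (-1.04, edgeR adjusted p = 0.023) were lower and Lama5 (0.95, edgeR adjusted p = 0.00291) was higher, where 13.1% of all genes were called lower and 11.2% higher. The Col4a1 call in that comparison ended when any of the 5 libraries was left out.

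After rescue with Ezh2, KO10_SL_rescued against KO10_SL, Col4a1, Col4a2, Lama1, Lamb1, Sparc and Serpinh1 were called lower, where 24.1% of all genes were. Col4a1 had 38.4 and 37.0 CPM in rescued cells, against 529 to 614 CPM in KO10_SL, a change of -3.89 (SE 0.371, edgeR adjusted p = 6.6e-07). Col4a2 had 17.9 and 16.1 CPM in rescued cells, against 377 to 419 CPM in KO10_SL, a change of -4.54 (SE 0.377, edgeR adjusted p = 1.95e-07). The KO10_SL levels of the other genes are those given above. Lama1 had 131 and 130.4 CPM in rescued cells (-2.58, SE 0.516, edgeR adjusted p = 6.94e-04), and Lamb1 had 158 and 147 CPM (-1.82, SE 0.313, edgeR adjusted p = 1.93e-04). Sparc had 85.3 and 90.01 CPM (-2.76, SE 0.12, edgeR adjusted p = 2.89e-10) and Serpinh1 31.7 and 25.0 CPM (-2.50, SE 0.216, edgeR adjusted p = 2.83e-07). All rescued libraries lay below all KO10_SL libraries for these 6, as for 41.3% of all genes. Lama5, Lamc1, Nid1 and Hspg2 changed by 0.14, -0.21, 0.15 and -0.01 and were not called. Both comparisons use the same KO10_SL libraries. Lama1 made up 38.1 and 38.8% of the summed per-kb level of Lama1 and Lama5 in rescued cells, against 79.4 to 81.0% in KO10_SL and 23.4 to 28.0% in E14_ESC.

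In rescued cells against E14_ESC, 0 of the 10 were called by edgeR or by DESeq2, 1 (Lama5) was under an unadjusted p of 0.05, and 0.108% of all genes were called. Lama5 differed by -0.53 (95% interval -0.96 to -0.095) and was called without a filter on low counts and with only the groups compared in the fit. The 95% intervals of the differences ran from -0.68 to 0.72 for Col4a1, from -0.58 to 0.85 for Col4a2, from -0.69 to 1.34 for Lama1 and from -0.38 to 0.09 for Sparc.

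**Figure D5:**
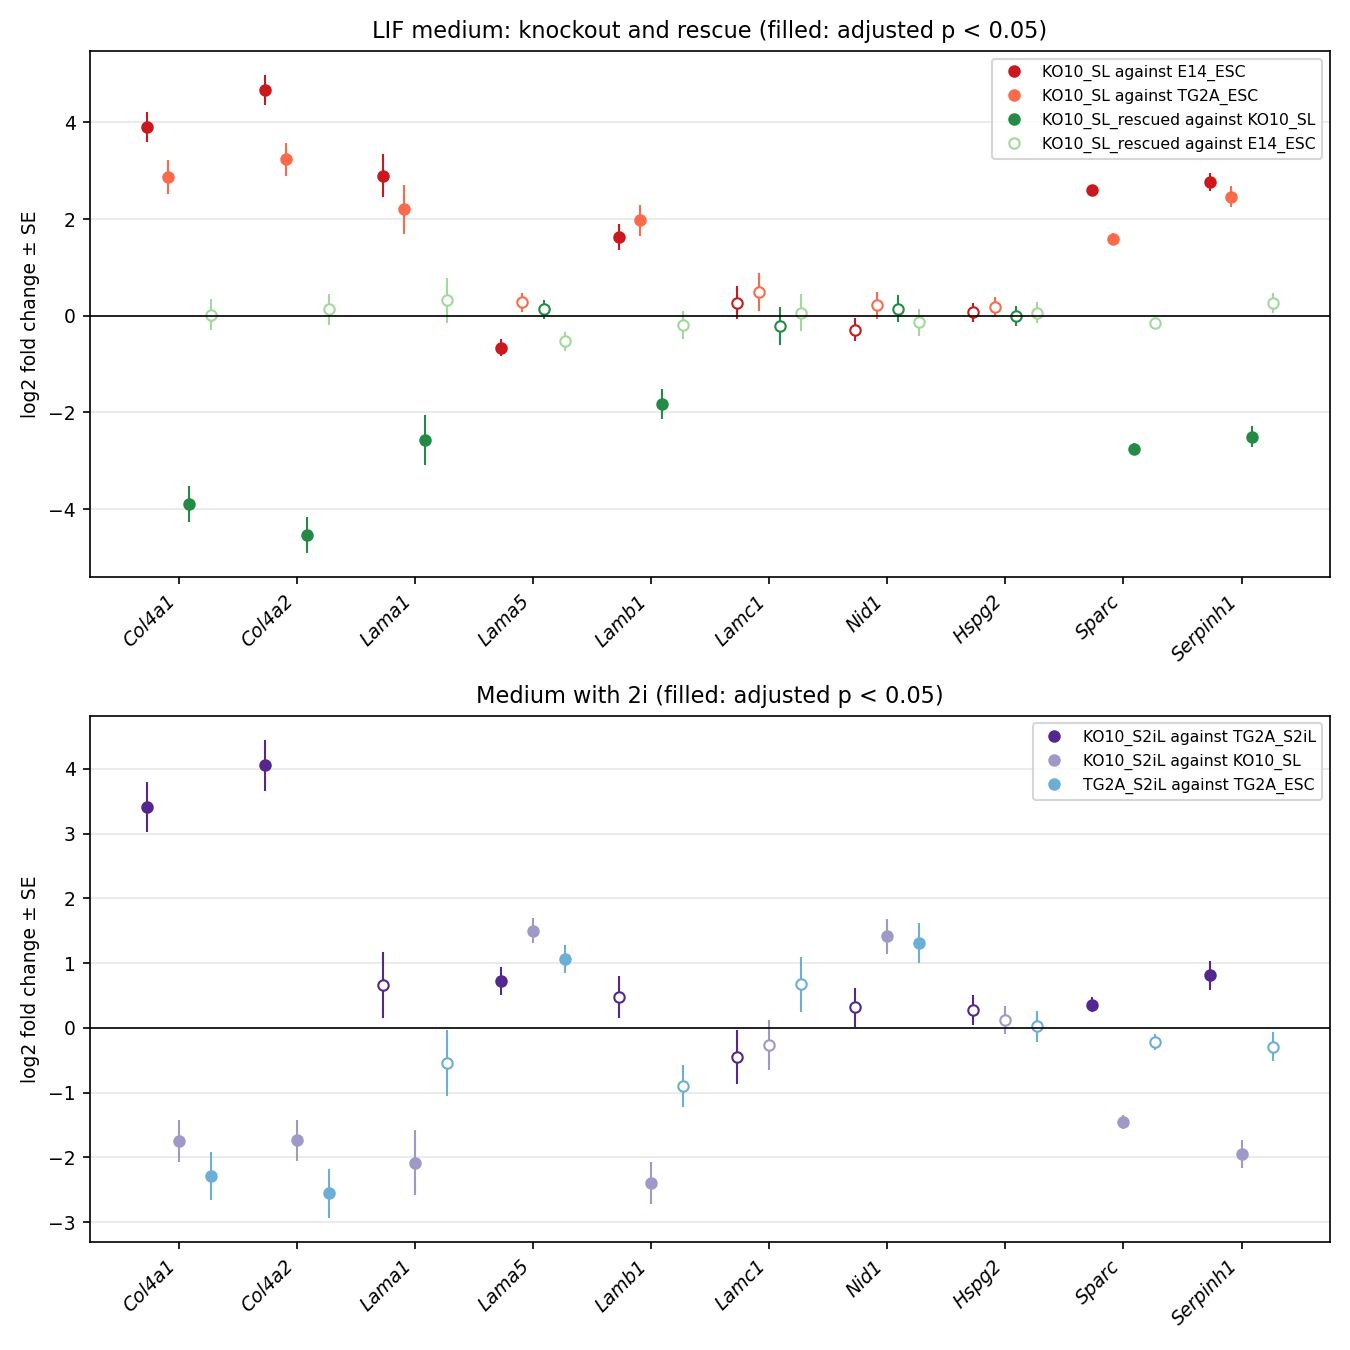
Log2 fold change with SE of the 10 genes; upper panel, knockout and rescue in LIF medium; lower panel, comparisons with 2i medium; filled points have an edgeR adjusted p under 0.05. In the upper panel Col4a1, Col4a2, Lama1, Lamb1, Sparc and Serpinh1 are above 0 in KO10_SL and below 0 after rescue; in the lower panel Col4a1 and Col4a2 stand at 3.41 and 4.06 in KO10_S2iL against TG2A_S2iL.

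With 2i in the medium the largest differences between knockout and wild-type cells were those of the collagen chains. Col4a1 had 169 and 165 CPM in KO10_S2iL, against 17.3 and 14.1 CPM in TG2A_S2iL, a rise of 3.41 (SE 0.384, edgeR adjusted p = 1.83e-05). Col4a2 had 119 and 118 CPM in KO10_S2iL, against 6.90 and 7.36 CPM in TG2A_S2iL, a rise of 4.06 (SE 0.395, edgeR adjusted p = 5.63e-06). Neither gene overlapped between the groups, and 39.6% of all genes were higher without overlap. Serpinh1 (0.81, SE 0.222, edgeR adjusted p = 0.0116), Lama5 (0.72, SE 0.215, edgeR adjusted p = 0.019) and Sparc (0.36, SE 0.117, edgeR adjusted p = 0.0302) were called higher as well, which gave 5 of 10 where 15.7% of all genes were called higher. Those 3 calls ended when any of the 4 libraries was left out, and the collagen calls did not. Without a filter on low counts, or with only the groups compared in the fit, 9 were called higher and 1 lower. The share of all genes called under these 2 settings was not counted, so these counts describe the 10 genes only. Lama1 had 181 and 188 CPM in KO10_S2iL, against 118 and 115 CPM in TG2A_S2iL (0.66, SE 0.514, edgeR adjusted p = 0.359).

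The knockout change with 2i less that in LIF medium, with the TG2A.NG.PB cells as control in both media, was called for Sparc (-1.23, SE 0.16, edgeR adjusted p = 0.00207) and Serpinh1 (-1.65, SE 0.3, edgeR adjusted p = 0.00998), both lower, where 1.12% of all genes were called lower. The Serpinh1 call ended when any 1 of the 4 libraries with 2i was left out, at changes of -1.72 to -1.55. Without a filter on low counts 7 of the 10 were called, 2 higher and 5 lower. With only the groups compared 8 were, 3 higher and 5 lower. The share of all genes called under these settings was not counted. Lamb1 (-1.497, SE 0.443, edgeR adjusted p = 0.0896) and Lama1 (-1.54, SE 0.7, edgeR adjusted p = 0.277) were not called in the main fit. Both were called lower under each of these settings, and Lamb1 also by DESeq2 (-1.45, DESeq2 adjusted p = 0.016). For Col4a1 and Col4a2 the difference was 0.54 (SE 0.474) and 0.82 (SE 0.479), and neither was called in the main fit. Under each of these settings both were called higher.

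The knockout clone itself differed between media. In KO10_S2iL against KO10_SL, Lamb1 had 99.4 and 105 CPM in KO10_S2iL, against 594, 507 and 509.6 CPM in KO10_SL, and fell by 2.39 (SE 0.322, edgeR adjusted p = 3.29e-05). Lama1 (-2.08, SE 0.502, edgeR adjusted p = 0.00395), Serpinh1 (-1.95, SE 0.209, edgeR adjusted p = 4.38e-06), Col4a1 (-1.74, SE 0.329), Col4a2 (-1.73, SE 0.32) and Sparc (-1.45, SE 0.112, edgeR adjusted p = 3.46e-07) were lower too, 6 of 10 where 17.3% of all genes were called lower. Lama5 had 654 and 635 CPM in KO10_S2iL, against 244, 229 and 209.5 CPM in KO10_SL, and rose by 1.501 (SE 0.193, edgeR adjusted p = 2.14e-05). Nid1 had 516 and 510.0 CPM in KO10_S2iL, against 229, 169 and 179 CPM in KO10_SL, and rose by 1.41 (SE 0.27, edgeR adjusted p = 6.95e-04), while 19.6% of all genes were called higher.

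In wild-type cells, TG2A_S2iL against TG2A_ESC, Col4a1 fell by 2.29 (SE 0.372, edgeR adjusted p = 4.19e-04) and Col4a2 by 2.56 (SE 0.382, edgeR adjusted p = 2.28e-04), where 11.6% of all genes were called lower. Lama5 had 395 and 388 CPM in TG2A_S2iL, against 179.7 and 195 CPM in TG2A_ESC, and rose by 1.06 (SE 0.217, edgeR adjusted p = 0.00222). Nid1 had 417 and 405 CPM in TG2A_S2iL, against 127 and 205 CPM in TG2A_ESC, and rose by 1.31 (SE 0.306, edgeR adjusted p = 0.00561), where 11.7% of all genes were called higher. The Nid1 call ended without TG2A_ESC replicate 1 (1.01, edgeR adjusted p = 0.0656), and 7 rather than 4 of the 10 were called without a filter on low counts or with only the groups compared. The share of all genes called under these settings was not counted. Lama1 made up 26.1 and 26.3% of the summed per-kb level of Lama1 and Lama5 in TG2A_S2iL and 24.9 and 26.1% in KO10_S2iL. In LIF medium it was 79.4 to 81.0% in KO10_SL and 50.7 and 53.2% in TG2A_ESC.

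In the order of group means over all 10 groups, Col4a1 ran from the 3 PrE groups, which overlap each other, to KO10_SL, KO10_S2iL, C57_ESC, TG2A_ESC, rescued cells, E14_ESC and TG2A_S2iL. Among neighbours in that order, the libraries overlapped between KO10_S2iL and C57_ESC, between C57_ESC and TG2A_ESC and between rescued cells and E14_ESC. Lama5 and Nid1 had KO10_S2iL first, at means of 644 ± 13.5 and 513 ± 4.26 CPM (SD, n = 2). Their log2 levels over the 10 groups had a Pearson r of 0.906 with each other and 0.316 and 0.247 with Col4a1. Lama5 was lowest in TG2A_ESC, at 187 ± 10.8 CPM (SD, n = 2), and Nid1 was lowest there too, at 166 ± 55.0 CPM (SD, n = 2). These correlations describe 10 groups that share lines and media.

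The 8 genes outside the set whose mean log2 CPM over the 10 groups was most like the mean profile of the 10 were Grina (Pearson r = 0.993), Gabre (0.990), Prnp (0.990), Map3k21 (0.988), Arl8b (0.988), Patj (0.987), Fut8 (0.987) and Ogfod2 (0.987). Among the members, Hspg2 was closest to that profile (0.970) and Nid1 farthest (0.483). Grina averaged 144 ± 15.3 CPM in EPZ_iPrE2, 135 ± 26.3 in EPZ_iPrE1 and 123 ± 17.0 in C57_PrESC, against 11.2 to 32.6 CPM in the other groups (SD, n = 2 in the PrE groups). Prnp, which encodes the prion protein, averaged 178 ± 26.9 CPM in EPZ_iPrE2, 177 ± 13.3 in EPZ_iPrE1 and 110.3 ± 31.4 in C57_PrESC, against 6.01 to 28.2 CPM elsewhere.

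Most genes that fold, modify and export collagen were called higher in the PrE stem cells. Of 17 tested, 14 were called higher and 1 lower in EPZ_iPrE1 against TG2A_ESC, 14 higher and 1 lower in EPZ_iPrE2, and 12 higher and 0 lower in C57_PrESC against C57_ESC. Of all genes, 27.9%, 28.8% and 27.3% were called higher in these comparisons. In KO10_SL against E14_ESC 11 were higher and 1 lower, where 25.8% and 22.7% of all genes were. In rescued cells against KO10_SL 1 was higher and 10 lower, where 20.9% and 24.1% of all genes were. P4ha2, a subunit of prolyl hydroxylase, averaged 462 ± 29.1 CPM in EPZ_iPrE2, 485 ± 63.0 in EPZ_iPrE1 and 305 ± 68.8 in C57_PrESC, against 12.5 ± 1.61 in TG2A_ESC and 22.1 ± 9.57 in C57_ESC (SD, n = 2). It rose by 5.21, 5.28 and 3.79 there and by 2.25 in KO10_SL against E14_ESC (SE 0.186, edgeR adjusted p = 1.24e-07). The lysyl hydroxylases Plod2 (4.91, 4.41 and 3.25) and Plod1 (3.85, 4.01 and 2.56) and the prolyl hydroxylase P4ha1 (4.48, 4.11 and 2.51) rose in EPZ_iPrE2, EPZ_iPrE1 and C57_PrESC. In the knockout Plod2 rose by 0.65, Plod1 by 0.995, P4ha1 by 1.38 and the collagen isomerase Ppib by 1.22. P4ha3 was called higher there as well (2.87, SE 1.1, edgeR adjusted p = 0.0421). The list's median change was 1.90, 1.66, 1.53 and 0.68 in EPZ_iPrE1, EPZ_iPrE2, C57_PrESC and KO10_SL, against -0.07, -0.11, -0.09 and 0.07 over all genes.

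Laminin chains outside the set were mostly not higher. Of 6 tested, 1 was called higher and 2 lower in EPZ_iPrE1, 1 higher and 3 lower in EPZ_iPrE2, and 1 higher and 3 lower in C57_PrESC, where 32.2%, 33.4% and 33.4% of all genes were called lower. The shares of all genes called higher there were 27.9%, 28.8% and 27.3%. Lamb2, the other widespread beta chain, averaged 151 ± 13.8 CPM in EPZ_iPrE2, 169 ± 28.6 in EPZ_iPrE1 and 178 ± 74.4 in C57_PrESC, against 33.2 ± 10.1 in TG2A_ESC and 33.3 ± 10.2 in C57_ESC (SD, n = 2). Its rises were 2.18, 2.34 and 2.42 in EPZ_iPrE2, EPZ_iPrE1 and C57_PrESC, and 0.61 in KO10_SL (SE 0.207, edgeR adjusted p = 0.023). Lamb3, a beta chain found in epidermal laminin, fell in EPZ_iPrE2, EPZ_iPrE1 and C57_PrESC, with changes of -4.02, -4.78 and -1.83. In KO10_SL against E14_ESC 2 of the 6 were called higher, Lamb2 and Lama4 (2.25, SE 0.826, edgeR adjusted p = 0.0328), where 25.8% of all genes were. Of the collagen IV chains Col4a3 to Col4a6, 2 were tested, Col4a5 and Col4a6, and 0 were called in the 3 PrE comparisons or in KO10_SL against E14_ESC. Col4a6 was called higher in KO10_SL against TG2A_ESC, and both were called higher in KO10_S2iL against TG2A_S2iL (edgeR adjusted p = 0.00568 for Col4a5 and 0.00238 for Col4a6). Of all genes, 13.6% and 15.7% were called higher in these comparisons. Col4a5 had 4.53 and 5.12 CPM in KO10_S2iL, against 0.0584 and 0.18 CPM in TG2A_S2iL, and Col4a6 had 2.07 and 2.92 CPM, against 0.0584 and 0.06 CPM. Wild-type levels this low give no fold, and these chains were named after their values were seen.

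Among 18 other basement membrane components tested, 8 were called higher and 6 lower in EPZ_iPrE1, 6 higher and 6 lower in EPZ_iPrE2, and 6 higher and 6 lower in C57_PrESC. These counts are near the shares over all genes, which were 27.9%, 28.8% and 27.3% higher and 32.2%, 33.4% and 33.4% lower. Egflam (pikachurin) averaged 34.6 ± 0.995, 23.8 ± 1.92 and 26.8 ± 0.700 CPM in EPZ_iPrE2, EPZ_iPrE1 and C57_PrESC, against 0.157 in TG2A_ESC and 0.708 in C57_ESC, and rose by 7.73, 7.19 and 5.24. At such low ESC levels the direction is clear but the size of the change is uncertain. Egflam also rose by 5.10 in KO10_SL against E14_ESC (SE 0.499, edgeR adjusted p = 6.15e-07) and fell by 5.11 on rescue. Tinagl1, a secreted basement membrane protein, rose by 3.42, 4.24 and 3.54 in the PrE groups and by 4.11 in KO10_SL, and fell by 4.97 on rescue. Pxdn, the peroxidase that crosslinks collagen IV, rose by 4.43, 4.33 and 2.93 in the PrE groups and was not called in KO10_SL (0.28, edgeR adjusted p = 0.206). Ntn1, which encodes a netrin, fell in the PrE groups, with changes of -4.99, -6.31 and -6.43. Frem2, an extracellular matrix protein, fell by 2.31 in KO10_SL and rose by 1.64 on rescue, and Papln fell by 1.60 in KO10_SL (edgeR adjusted p = 0.0489).

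Of 14 receptors for basement membrane, 1 was called higher and 3 lower in EPZ_iPrE1, 2 higher and 4 lower in EPZ_iPrE2, and 2 higher and 7 lower in C57_PrESC, where 32.2%, 33.4% and 33.4% of all genes were called lower. Bcam, the Lutheran receptor for laminin alpha-5, averaged 1.60 ± 0.712, 2.97 ± 1.12 and 1.69 ± 0.0929 CPM in EPZ_iPrE2, EPZ_iPrE1 and C57_PrESC, against 299 ± 51.8 in TG2A_ESC and 88.3 ± 55.2 in C57_ESC (SD, n = 2), and fell, with changes of -7.53, -6.64 and -5.70. The collagen receptor Ddr1 fell in the PrE groups (-2.55, -2.46 and -2.73) and in KO10_SL (-1.44), where 1 receptor was called higher and 3 lower, beside 25.8% and 22.7% of all genes. The proteoglycan Sdc4 rose by 3.06, 3.12 and 3.07 in the PrE groups. Itgb4, an integrin beta chain, fell there (-1.96, -1.23 and -1.66). In KO10_SL the integrin alpha chain Itga3 rose by 0.80, Itga6 fell by 0.55 and the dystroglycan gene Dag1 fell by 0.44.

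Of 10 matrix proteases and inhibitors, 4, 4 and 5 were called higher and 0 lower in EPZ_iPrE1, EPZ_iPrE2 and C57_PrESC, and 5 higher and 0 lower in KO10_SL, where 27.9%, 28.8%, 27.3% and 25.8% of all genes were called higher. The inhibitor Timp3 (4.49, 4.02 and 4.30), the protease Adamts9 (3.46, 3.56 and 2.35), the procollagen protease Bmp1 (3.28, 2.57 and 3.05) and the secreted protease Htra1 (1.32, 0.84 and 3.04) rose in EPZ_iPrE2, EPZ_iPrE1 and C57_PrESC. In KO10_SL Htra1 (2.71), Timp2 (2.46, SE 0.865, edgeR adjusted p = 0.0266), Bmp1 (2.17) and Timp1 (1.26) rose. On rescue Htra1, Bmp1 and Timp1 were called lower, and the less precise Timp2 was not called (edgeR adjusted p = 0.116). Of 13 interstitial matrix genes, 6 were called higher and 1 lower in EPZ_iPrE1, 7 higher and 1 lower in EPZ_iPrE2, 4 higher and 0 lower in C57_PrESC, and 0 in either direction in KO10_SL against E14_ESC, with 1 at an unadjusted p under 0.05. The same shares over all genes apply to these counts. Those called in all 3 PrE comparisons were Col6a3 (6.34, 5.85 and 3.45) and Col6a1 (5.52, 4.86 and 4.36) in EPZ_iPrE2, EPZ_iPrE1 and C57_PrESC. These values were imprecise. For Col6a3 the SE was 2.14, 2.16 and 1.46, with edgeR adjusted p of 0.0165, 0.0275 and 0.0499. For Col6a1 the SE was 1.94, 1.97 and 1.44, with edgeR adjusted p of 0.0204, 0.0428 and 0.0155. Fibroblast marker RNA was high in the libraries named above, 5 of its markers are in this list, and its part in these calls was not tested.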

How the data were processed

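The 22 mouse RNA-seq libraries form 10 groups, named after their titles. The labels' protocols name an rRNA depletion kit while the labels give a polyA molecule, so the RNA selection is uncertain. Trim Galore, STAR 2.7.6a, DESeq2 and mm10 are named in the submitters' processing notes. For the counting tool, annotation and strandedness, nothing is given in the sources used here. The authors deposited expected counts per gene symbol, unscaled. Whole-number counts had been planned for, but 5.71 to 7.26% of symbols per library hold fractional values, so the values were rounded to whole numbers before modelling.

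Genes that passed filterByExpr over the 10 groups (17547) were fitted in edgeR 4.0.16 (R 4.3.3) with TMM scaling, 1 coefficient per group and 12 residual degrees of freedom. Each of 14 comparisons was a contrast tested by quasi-likelihood, with Benjamini-Hochberg adjustment over all genes tested and calls below 0.05. CPM uses TMM-scaled library sizes, and SE is the absolute log2 change over the square root of F. The 95% intervals are the log2 change plus or minus SE times the t quantile at 12 degrees of freedom. The quasi-likelihood test uses more degrees of freedom than that, so the intervals are somewhat wider than its p-values imply. Per-kb levels use the longest coding transcript of GENCODE M21. The code of the fit was tried on simulated counts with equal dispersion for all genes. These libraries differ in spread, so that trial does not check the calls made here. Genes named beside the 10 were Ezh2, up to 4 genes per list called in all 3 PrE comparisons and up to 4 called in KO10_SL against E14_ESC, by absolute change, and the 8 most alike in profile. Nanog, Col4a5 and Col4a6 were added after their values were seen. A gene that the rule names is not reported here. Alternatives were RLE factors, library totals only, no filter on low counts, only the groups compared, DESeq2 1.42.0, a replicate block, leaving out each library, and 2 added after seeing the data. The members and lists were chosen with earlier results of these data known. Replicates were not copies of 1 library, since the chi-square per gene between replicates was 2.14 to 58.8.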

Additional observations from a re-analysis of the deposited data

Results flagged for a closer look

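The change in PrE stem cells differed between the EPZ lines and C57 cells, by a test of the difference itself, for 3 of the 10 genes. Averaged over both EPZ lines and less the change in C57 cells, it was 1.57 for Serpinh1, 1.66 for Nid1 and 1.01 for Lama5 on the log2 scale. The Serpinh1 difference stayed between 1.18 and 1.90 and was called when each library was left out in turn. The Nid1 and Lama5 calls ended with only the groups compared in the fit.

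The knockout change with 2i differed from that in LIF medium for Sparc, by -1.23, and for Serpinh1, by -1.65, in a test of the difference with the TG2A.NG.PB cells as wild type. The Sparc difference stayed between -1.32 and -1.09 and was called when each library was left out in turn. The Serpinh1 call ended without any 1 of the 4 libraries with 2i. With E14_ESC as the wild type in LIF medium, an alternative chosen after the data were seen, the differences were -2.25 for Sparc and -1.95 for Serpinh1, both called. The clone is the same in both media, so these differences rest on 1 knockout clone.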

How the results depend on the processing

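Of 1610 values of single genes under the alternatives, 63 gained a call, 26 lost one and 2 reversed direction with a call in at least 1 fit. The other 1519 kept their side of the threshold. Changes of direction among values called in neither fit were not counted. The reversed values were Nid1 in C57_PrESC against C57_ESC, at 0.68, and Col4a1 in the EPZ less C57 difference, at -0.59, both without C57_ESC replicate 1, while they were -0.58 and 1.30 without C57_ESC replicate 2. The cause was not tested. Without a filter on low counts the members called were 1 in EPZ_iPrE2 against EPZ_iPrE1, 6 in the EPZ less C57 difference, 1 in rescued cells against E14_ESC, 10 in KO10_S2iL against TG2A_S2iL, 7 in TG2A_S2iL against TG2A_ESC, 7 in the difference between media and 7 in E14_ESC against TG2A_ESC. They were 9 in C57_PrESC against C57_ESC, 8 in KO10_SL against E14_ESC and 8 in KO10_SL against TG2A_ESC, with the other 4 counts as reported. With only the groups compared they were 1 in the EPZ less C57 difference, 1 in rescued cells against E14_ESC, 10 in KO10_S2iL against TG2A_S2iL, 7 in TG2A_S2iL against TG2A_ESC and 8 in the difference between media. They were 7 in C57_PrESC against C57_ESC, 9 in KO10_SL against E14_ESC, 8 in KO10_SL against TG2A_ESC, 7 in rescued cells against KO10_SL, 9 in KO10_S2iL against KO10_SL and 5 in E14_ESC against TG2A_ESC. DESeq2 gave 4 in the EPZ less C57 difference, 5 in TG2A_S2iL against TG2A_ESC and 3 in the difference between media, and the reported count in the other 11 comparisons. Of the alternatives chosen after the data were seen, leaving out both C57 libraries of high fibroblast markers gave 5 in the EPZ less C57 difference, and E14_ESC as the wild type in LIF medium gave 4 in the difference between media. When each library was left out in turn the members called were 9 to 10 in EPZ_iPrE1, 10 in EPZ_iPrE2 and 8 to 9 in C57_PrESC against their ESCs, 3 to 5 in the EPZ less C57 difference, 7 in KO10_SL against E14_ESC, 6 in KO10_SL against TG2A_ESC, 6 in rescued cells against KO10_SL, 2 in KO10_S2iL against TG2A_S2iL, 3 to 4 in TG2A_S2iL against TG2A_ESC, 8 in KO10_S2iL against KO10_SL, 1 to 2 in the difference between media and 3 in E14_ESC against TG2A_ESC. They were 0 in the other 2 comparisons. The share of all genes called was not counted for the settings in this paragraph, so these counts describe the 10 genes only.

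With library totals only, 72.4% of calls were higher in KO10_S2iL against TG2A_S2iL, against 52.3% under TMM, and the median of all genes moved to 0.17, against 0.01. The share was 66.4% against 53.2% in KO10_S2iL against KO10_SL, where the median moved to 0.20, against 0.06, and 60.3% against 49.0% in KO10_SL against TG2A_ESC and 58.9% against 46.2% in E14_ESC against TG2A_ESC. In the difference between media it was 63.0%, and 57.1% with RLE factors, against 42.9% under TMM. The number of members called was the same under all 3 scalings. No label says that a replicate number pairs libraries. Same-numbered deviations had a Pearson r of 0.05, -0.0039 and 0.03 in KO10_SL and E14_ESC, the comparison with 3 numbers. With 2 numbers it was 0.29 in C57_PrESC and C57_ESC, -0.36 in EPZ_iPrE2 and EPZ_iPrE1, and between -0.05 and 0.03 in the other pairs of groups. With a replicate block the members called were 10, 10 and 8 in the 3 PrE comparisons and 7 in KO10_SL against E14_ESC, as without it, and the counts of the other comparisons did not move either. Groups of 2 libraries and 1 knockout clone limit the precision.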
